A study of Mus musculus with 18 samples.

Results

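Kidney and urogenital ridge development was followed through 9 genes, Wt1, Pax2, Pax8, Osr1, Six2, Gdnf, Lhx1, Emx2 and Eya1. They were picked by name from the 34244 named genes of an RNA-seq table of whole mouse embryos at E11.5. All 9 are in the table and passed the filter for testing, together with 19388 other genes. The table holds 1 library from each of 9 embryos of the FVB strain, 3 of each genotype. Dnmt3b+/+ embryos carry the unchanged gene of the de novo DNA methyltransferase Dnmt3b. Embryos labelled Dnmt3b-/- carry a null allele that was derived from a loxP-flanked allele, and Dnmt3bCI/CI embryos carry a form in which substitutions in the catalytic site were made to remove the methyltransferase activity. Only live embryos were collected, from naturally mated heterozygotes, and embryos were not pooled. The comparisons ask which genes respond to the loss of Dnmt3b and which of them respond to the loss of its catalytic activity.

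The kidney and the gonad both arise from intermediate mesoderm. Osr1, Lhx1, Pax2 and Pax8 encode transcription factors of the early intermediate mesoderm and the nephric duct. Eya1, Six2, Wt1 and Pax2 act in the metanephric mesenchyme, where Eya1 is needed for Gdnf, Gdnf draws the ureteric bud out of the nephric duct through the receptor Ret, and Six2 keeps nephron progenitors undifferentiated. Wt1 and Emx2 are also needed for the gonad, and Emx2 is needed for the whole urogenital system. At E11.5 the ureteric bud has just entered the mesenchyme. None of these genes is restricted to the kidney. Pax2, Pax8 and Lhx1 are also made in the hindbrain and spinal cord, Emx2 in the forebrain, Six2, Osr1 and Eya1 in head and limb mesenchyme, and Wt1 in mesothelium. In libraries of whole embryos, fewer expressing cells and less RNA per cell cannot be told apart.

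The genes lie on 7 chromosomes of GRCm38. Pax2 (ENSMUSG00000004231) lies at chr19:44756045-44837871 and Emx2 (ENSMUSG00000043969) at chr19:59458372-59465357, both on the plus strand. Pax8 (ENSMUSG00000026976) lies at chr2:24420560-24475599 on the minus strand and Wt1 (ENSMUSG00000016458) at chr2:105126529-105173616 on the plus strand. Lhx1 (ENSMUSG00000018698) lies at chr11:84518284-84525535, Six2 (ENSMUSG00000024134) at chr17:85684277-85688274 and Eya1 (ENSMUSG00000025932) at chr1:14168954-14310235, all on the minus strand. Osr1 (ENSMUSG00000048387) lies at chr12:9570116-9581500 and Gdnf (ENSMUSG00000022144) at chr15:7810846-7837575, both on the plus strand. Emx2, Pax2, Pax8, Osr1 and Eya1 overlap genes on the opposite strand, and the strand setting of the counting is not stated. The overlapping gene with the highest level was Emx2os, at 0.304 to 0.727 FPKM.

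Pax2, Pax8 and Lhx1 moved together from embryo to embryo, as described further on, so the 250 bases before their start sites are shown. The sequences are from RefSeq (GRCm38.p6), which gave entries for 6 of the 9 genes and none for Wt1, Osr1 and Eya1. Each is written 5' to 3' on the strand of the gene, and capitals mark CpG, the dinucleotide at which Dnmt3b can methylate cytosine. CpG reads the same on both strands. The windows are chr19:44755502-44755751 on the plus strand for Pax2 (of 3 listed starts, the nearest to the annotated gene start), chr2:24475600-24475849 on the minus strand for Pax8 and chr11:84525535-84525784 on the minus strand for Lhx1.
Pax2: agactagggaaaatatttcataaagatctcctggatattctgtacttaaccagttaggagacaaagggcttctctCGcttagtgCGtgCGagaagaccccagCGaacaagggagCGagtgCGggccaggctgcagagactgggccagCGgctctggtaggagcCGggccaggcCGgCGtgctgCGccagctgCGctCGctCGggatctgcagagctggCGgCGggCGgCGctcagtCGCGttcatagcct
Pax8: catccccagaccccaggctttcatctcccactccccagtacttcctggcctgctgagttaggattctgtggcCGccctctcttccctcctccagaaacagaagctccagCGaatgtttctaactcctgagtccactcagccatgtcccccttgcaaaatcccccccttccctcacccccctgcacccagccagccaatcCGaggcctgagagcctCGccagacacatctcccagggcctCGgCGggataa
Lhx1: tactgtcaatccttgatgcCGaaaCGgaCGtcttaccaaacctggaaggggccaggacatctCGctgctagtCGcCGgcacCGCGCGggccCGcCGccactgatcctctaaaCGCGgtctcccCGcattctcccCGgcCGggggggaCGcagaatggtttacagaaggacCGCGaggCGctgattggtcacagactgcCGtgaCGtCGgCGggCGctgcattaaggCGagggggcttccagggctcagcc
The Pax2 window held 20 CpGs, a number reached by 17.9% of the 32851 windows of the same length in the RefSeq table. The Lhx1 window held 26, reached by 9.59%, and the Pax8 window held 6, the median of all windows, reached by 50.4%. The 3 windows thus ranged from the median CpG number to a high one. The windows of the other listed Pax2 starts held 25 CpGs, reached by 10.7%, and 5 CpGs, reached by 55.6%. Methylation was not analysed here.

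Values are FPKM, the authors' reads (or fragments) per kilobase of exon scaled to library size. Whole reads could be worked back from the steps between the values. They gave 20406902 to 26368048 reads on genes per library, and the 9 genes held between 17 reads (Pax8 in embryo 3 labelled Dnmt3b-/-) and 3271 reads (Six2 in Dnmt3b+/+ embryo 1). Dnmt3b itself was higher, not lower, in libraries with the label Dnmt3b-/-, at 2.45, 3.12 and 3.33 FPKM, than in Dnmt3b+/+ libraries, at 2.25, 1.62 and 2.04 FPKM, or in Dnmt3bCI/CI, at 2.06, 1.98 and 2.32 FPKM. A value over the whole gene does not check the loss of a part of it, so these embryos are named by their label. Several libraries stood apart in tissue markers for embryos labelled whole. Afp, a gene of fetal liver and yolk sac, had 0.119 FPKM in Dnmt3b+/+ embryo 2 and 23.8 to 93.3 FPKM in the other 8. Emx1, a gene of the dorsal forebrain, had 0.0212 FPKM in Dnmt3bCI/CI embryo 2 and 1.57 to 4.57 FPKM in the others. Myl7, a gene of the heart atrium chosen as a marker after its values were seen, had 0.645 FPKM in Dnmt3b+/+ embryo 1 and 0.705 FPKM in Dnmt3bCI/CI embryo 3, against 10.9 to 40.4 FPKM in the others. For the 9 genes and the 15 genes named from lists further on, comparisons of the embryos labelled Dnmt3b-/- with Dnmt3b+/+ are therefore also given without Dnmt3b+/+ embryo 2 and Dnmt3bCI/CI embryo 2, where that moved the value by over 1.5 times or changed its sign. Dnmt3b+/+ embryo 1 and Dnmt3bCI/CI embryo 3 were left out singly and not as a pair.

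Six2 had the highest level of the 9 genes in every embryo, with a mean of 27.9 ± 7.0 FPKM (SD, n = 3) in Dnmt3b+/+ embryos. Osr1 followed at 13.0 ± 1.61 FPKM and was above Lhx1 in 9 of 9 embryos. Lhx1 (6.30 ± 4.16 FPKM), Emx2 (5.68 ± 0.657 FPKM) and Pax2 (3.41 ± 1.87 FPKM) formed the middle, and their order was not settled, since Lhx1 was above Emx2 in only 5 of 9 embryos and Emx2 above Pax2 in 4 of 9. Eya1 (1.25 ± 0.271 FPKM), Wt1 (1.14 ± 0.573 FPKM), Pax8 (0.698 ± 0.297 FPKM) and Gdnf (0.576 ± 0.267 FPKM) were lowest. Neighbours in this last group overlapped among Dnmt3b+/+ embryos. Of these 4, Eya1 was above Wt1 in 6 of 9 embryos, Wt1 above Pax8 in 8 of 9, and Pax8 above Gdnf in 5 of 9. In Dnmt3bCI/CI embryos Pax2 was above Emx2 in 3 of 3 embryos, although their ranges overlapped.

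**Figure D1:**
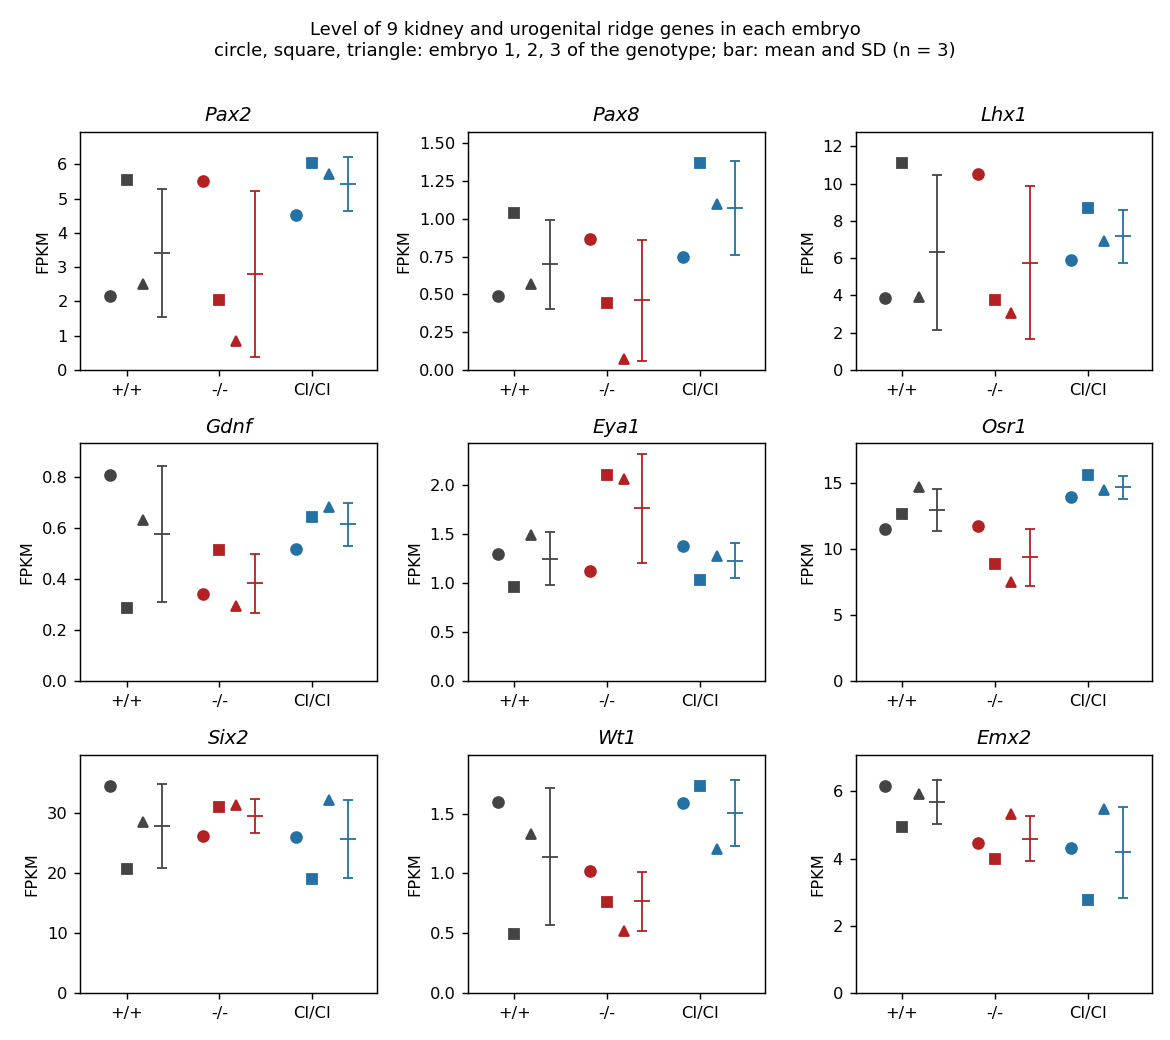
FPKM (vertical axes, from 0) of the 9 genes in each embryo by genotype (+/+, labelled -/-, CI/CI), with embryos 1, 2 and 3 as circle, square and triangle and the bar as mean and SD of 3 embryos. For Pax2, Pax8 and Lhx1, Dnmt3b+/+ embryo 2 and embryo 1 labelled Dnmt3b-/- stand above the other embryos of their genotype, and the 3 genotypes overlap.

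No gene of the 9 changed between genotypes under the thresholds used, an adjusted p under 0.05 (limma, Benjamini-Hochberg over 19397 genes) with a fold change of at least 2. Between the embryos labelled Dnmt3b-/- and Dnmt3b+/+ embryos 0 of 9 passed, where 4.45% of all tested genes did. Between Dnmt3bCI/CI and Dnmt3b+/+ 0 of 9 passed, where 0.129% of all genes did, and between the embryos labelled Dnmt3b-/- and Dnmt3bCI/CI 0 of 9 passed, where 5.42% did. Without the fold change threshold the counts were 0, 0 and 1 of 9, beside 25.8%, 0.144% and 27.9% of all genes. At an unadjusted p under 0.05 the counts were 1, 0 and 3 of 9, beside 40.0%, 5.25% and 41.9% of all genes, so that none of these counts stood above the share of all genes. The 3 comparisons share embryos and are not independent. Over all genes, 208 were higher and 655 lower under the label Dnmt3b-/- against Dnmt3b+/+, a split that quantile normalization moved to 272 and 392. Against Dnmt3bCI/CI the numbers were 213 and 838, moved to 330 and 495.

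The median log2 fold change of the 9 genes was -0.42 in the embryos labelled Dnmt3b-/- against Dnmt3b+/+, beside -0.07 over all tested genes, with 7 of the 9 estimates below 0. It was 0.19 in Dnmt3bCI/CI against Dnmt3b+/+, beside 0.02 over all genes, with 6 of 9 above 0. It was -0.58 in the embryos labelled Dnmt3b-/- against Dnmt3bCI/CI, beside -0.08 over all genes, with 6 of 9 below 0. In none of the 9 genes did the embryos labelled Dnmt3b-/- and the Dnmt3b+/+ embryos separate without overlap, which 38.9% of all tested genes did. Dnmt3bCI/CI and Dnmt3b+/+ embryos separated for 0 of 9, beside 13.2% of all genes. The embryos labelled Dnmt3b-/- lay below all Dnmt3bCI/CI embryos for 3 of the 9, Wt1, Osr1 and Gdnf, beside 46.2% of all genes that separated in either direction.

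**Figure D2:**
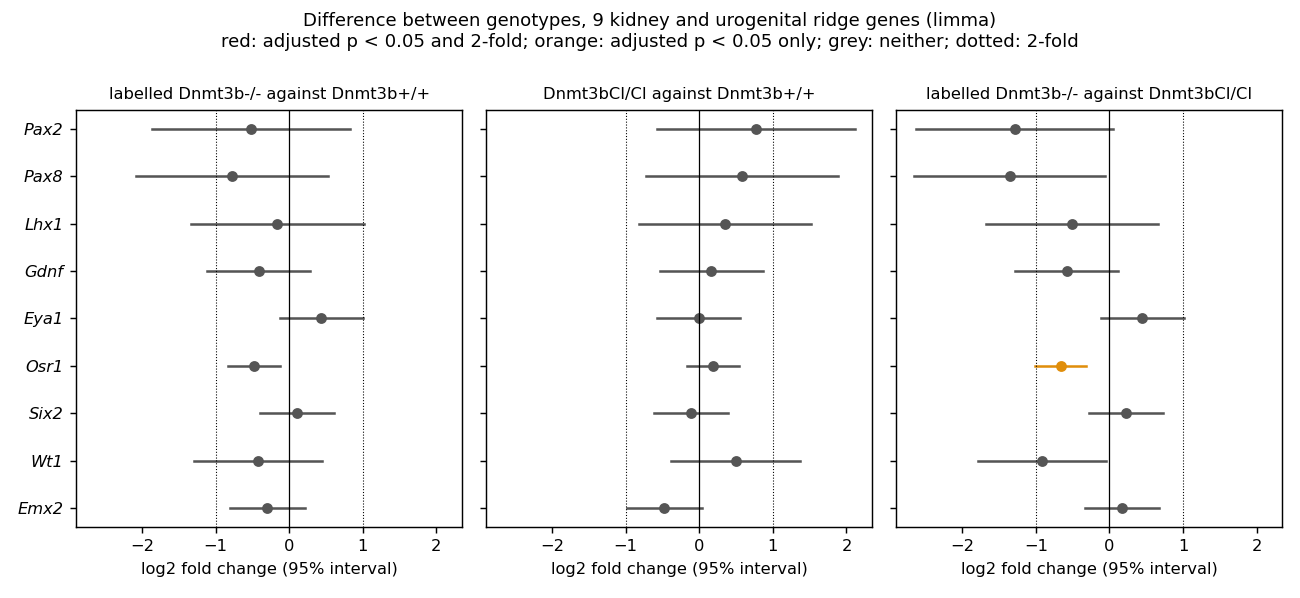
Log2 fold change (horizontal axis, limma on log2(FPKM + 0.1)) with its 95% interval for the 9 genes in the 3 comparisons, with dotted lines at a 2-fold change. Osr1 is the only gene with an adjusted p under 0.05, in the embryos labelled Dnmt3b-/- against Dnmt3bCI/CI, at -0.66, and the intervals of Pax2, Pax8 and Lhx1 reach past a 2-fold change in at least 1 direction in all 3 comparisons.

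Osr1, one of the first genes of the intermediate mesoderm, came nearest to a difference between genotypes. It had 11.503, 12.7 and 14.7 FPKM in Dnmt3b+/+ embryos, 11.8, 8.86 and 7.52 FPKM under the label Dnmt3b-/- and 13.9, 15.7 and 14.5 FPKM in Dnmt3bCI/CI embryos. Embryos 2 and 3 labelled Dnmt3b-/- were the 2 lowest of all 9, and embryo 1 lay within the Dnmt3b+/+ range. Its log2 fold change was -0.48 (standard error 0.15, limma adjusted p = 0.0510) against Dnmt3b+/+ and -0.66 (standard error 0.15, adjusted p = 0.0151) against Dnmt3bCI/CI. The 95% interval of the second, from -1.02 to -0.31, includes a 2-fold change at its lower end. Without embryo 1 of the label these values were -0.65 (adjusted p = 0.00462) and -0.84 (adjusted p = 0.00156). Of 21 alternatives, 5 gave an adjusted p under 0.05 against Dnmt3b+/+ (range of all 0.00462 to 0.152) and 18 did against Dnmt3bCI/CI (0.00156 to 0.0632). The 3 others against Dnmt3bCI/CI left out embryo 2 of the label (0.0528), Dnmt3bCI/CI embryo 2 (0.0534) or Dnmt3b+/+ embryo 2 with Dnmt3bCI/CI embryo 2 (0.0632). Between Dnmt3bCI/CI and Dnmt3b+/+ the log2 fold change was 0.19, with an interval from -0.17 to 0.54.

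Pax2, Pax8 and Lhx1, the transcription factors of the nephric duct, varied more within genotypes than between them. Pax2 had 2.15, 5.56 and 2.51 FPKM in Dnmt3b+/+ embryos, 5.51, 2.05 and 0.839 FPKM under the label Dnmt3b-/- and 4.53, 6.04 and 5.71 FPKM in Dnmt3bCI/CI embryos. Its highest and lowest embryos differed 6.56-fold within the label Dnmt3b-/- and 1.33-fold within Dnmt3bCI/CI. The Dnmt3b+/+ and Dnmt3b-/- labels each hold 1 high embryo, while the Dnmt3bCI/CI embryos were all high. Pax8 had 0.488, 1.04 and 0.568 FPKM in Dnmt3b+/+, 0.869, 0.442 and 0.0692 FPKM under the label Dnmt3b-/- and 0.750, 1.37 and 1.09 FPKM in Dnmt3bCI/CI. The 9 embryos fell in the same order for Pax8 as for Pax2. Lhx1 had 3.87, 11.1 and 3.93 FPKM in Dnmt3b+/+, 10.5, 3.73 and 3.06 FPKM under the label Dnmt3b-/- and 5.88, 8.71 and 6.93 FPKM in Dnmt3bCI/CI. The same 5 embryos, Dnmt3b+/+ embryo 2, embryo 1 labelled Dnmt3b-/- and all Dnmt3bCI/CI embryos, were the 5 highest for each of the 3 genes.

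Against Dnmt3b+/+, the log2 fold changes in the embryos labelled Dnmt3b-/- were -0.52 for Pax2 (95% interval -1.86 to 0.82, limma adjusted p = 0.550), -0.78 for Pax8 (-2.08 to 0.53, adjusted p = 0.345) and -0.16 for Lhx1 (-1.33 to 1.01, adjusted p = 0.835). These intervals include both no change and a fall of more than 2-fold. Against Dnmt3bCI/CI the values were -1.29 for Pax2 (adjusted p = 0.132), -1.36 for Pax8 (adjusted p = 0.107) and -0.51 for Lhx1 (adjusted p = 0.486). These differences turned on single embryos. Without embryo 1 labelled Dnmt3b-/-, Pax2 was at -1.95 (adjusted p = 0.0119) and Pax8 at -1.91 (adjusted p = 0.0197) against Dnmt3bCI/CI, both past the thresholds. Without embryo 3 of that label they were at -0.66 and -0.66 (adjusted p = 0.376 and 0.260), and Pax2 against Dnmt3b+/+ was at 0.11. Without Dnmt3b+/+ embryo 2 and Dnmt3bCI/CI embryo 2, the values against Dnmt3b+/+ were -0.11 for Pax2 (adjusted p = 0.930), -0.49 for Pax8 (adjusted p = 0.649) and 0.33 for Lhx1 (adjusted p = 0.667). In Dnmt3bCI/CI against Dnmt3b+/+ the log2 fold changes were 0.77 for Pax2, 0.58 for Pax8 and 0.35 for Lhx1, with adjusted p from 0.949 to 0.970. Over the 21 alternatives they ran from 0.51 to 1.18 for Pax2, from 0.29 to 0.87 for Pax8 and from 0.096 to 0.84 for Lhx1. No adjusted p among these was under 0.716.

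The spread of these genes was compared with that of all well expressed genes, not matched for level. The SD within genotypes on the log2 scale was 0.86 for Pax2, 0.83 for Pax8 and 0.75 for Lhx1, against a median of 0.118 over 12796 genes with a mean of at least 1 FPKM, and 98.5% to 98.8% of these genes varied less. Pax8 itself lies below that level, with 17 to 359 reads per library. Osr1 had the smallest spread of the 9, at 0.218, and 81.7% of the genes still varied less. Markers of other tissues did not share 1 pattern with Pax2, Pax8 and Lhx1. Lhx5, a gene of spinal cord and diencephalon, had 12.9 FPKM in Dnmt3b+/+ embryo 2, 12.9 FPKM in embryo 1 labelled Dnmt3b-/- and 4.92 to 10.2 FPKM in the others. En2, a gene of the midbrain and hindbrain, had 7.22 and 6.62 FPKM in the same pair of embryos and 0.0317 to 2.96 FPKM in the others. En2 was at 0.258 and 0.0441 FPKM in Dnmt3bCI/CI embryos 1 and 3, which had high Pax2. It was at 2.96 FPKM in embryo 2 labelled Dnmt3b-/-, which had low Pax2. Nkx2-1, of the same marker list, ran the opposite way to Pax2. It had 0.699 to 3.46 FPKM in the embryos with high Pax2 and 5.07 to 8.69 FPKM in the rest. Summed over the 10 neural, ear and thyroid markers, levels ran from 36.1 to 47.4 FPKM in Dnmt3b+/+, from 33.2 to 38.3 FPKM under the label Dnmt3b-/- and from 21.2 to 27.8 FPKM in Dnmt3bCI/CI. In each comparison 0 of the 10 passed the thresholds, beside 0.129% to 5.42% of all genes. Their median log2 fold change was -0.007 in the label Dnmt3b-/- against Dnmt3b+/+, beside -0.07 over all genes. It was -0.65 in Dnmt3bCI/CI against Dnmt3b+/+ and 0.91 in the label against Dnmt3bCI/CI, beside 0.02 and -0.08 over all genes. The part of these tissues in the levels of Pax2, Pax8 and Lhx1 was not tested. Genes of the nephric duct did not share 1 pattern. Cdh16, a gene of kidney tubule epithelium, had 4 reads in Dnmt3b+/+ embryo 2, 9 in embryo 1 labelled Dnmt3b-/- and 24 to 31 in Dnmt3bCI/CI embryos, all of them high for Pax2. Gata3, a transcription factor of the duct named after its values were seen, was highest of all 9 in Dnmt3b+/+ embryo 2, at 3.13 FPKM, and had 1.43 to 1.67 FPKM in Dnmt3bCI/CI embryos.

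**Figure D3:**
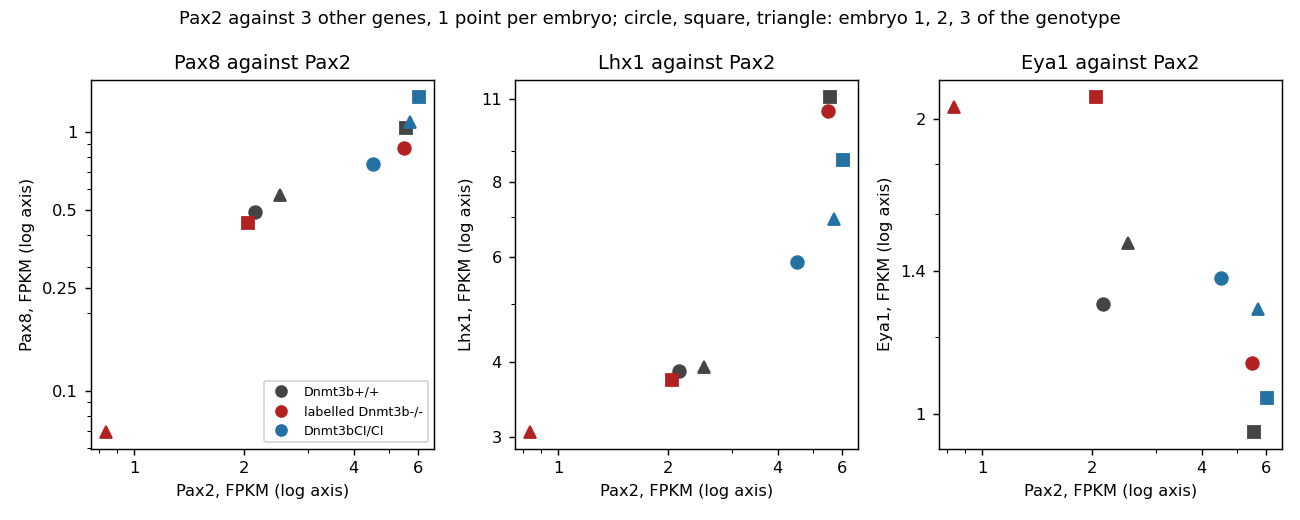
Pax8, Lhx1 and Eya1 (vertical axes) against Pax2 (horizontal axis), FPKM on log axes, with 1 point for each of the 9 embryos, genotypes by colour and embryos 1, 2 and 3 as circle, square and triangle. The points fall into a group of 5 embryos with Pax2 at 4.53 to 6.04 FPKM and a group of 4 at 0.839 to 2.51 FPKM, with embryos of Dnmt3b+/+ and of the label Dnmt3b-/- in both.

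Eya1, a transcriptional coactivator and phosphatase upstream of Gdnf, ran opposite to these genes. It had 1.30, 0.959 and 1.50 FPKM in Dnmt3b+/+ embryos, 1.13, 2.11 and 2.06 FPKM under the label Dnmt3b-/- and 1.38, 1.04 and 1.28 FPKM in Dnmt3bCI/CI embryos. Embryos 2 and 3 labelled Dnmt3b-/- were above all other embryos, while embryo 1, which had high Pax2, lay below 4 of the 6 embryos of the other genotypes. The log2 fold change was 0.44 (standard error 0.25, limma adjusted p = 0.221) against Dnmt3b+/+ and 0.45 (standard error 0.25, adjusted p = 0.205) against Dnmt3bCI/CI. Without embryo 1 of the label it was 0.71 (adjusted p = 0.0198) and 0.72 (adjusted p = 0.0180), below a 2-fold change. Without Dnmt3b+/+ embryo 2 and Dnmt3bCI/CI embryo 2 the first was 0.27 (adjusted p = 0.507). Since Pax2 and Lhx1 fell into 2 groups of embryos, no correlation over all embryos is given for pairs of the 9 genes with them.

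Wt1, a zinc finger factor of metanephric mesenchyme, gonad and mesothelium, had 1.59, 0.496 and 1.33 FPKM in Dnmt3b+/+ embryos, 1.02, 0.763 and 0.518 FPKM under the label Dnmt3b-/- and 1.59, 1.73 and 1.20 FPKM in Dnmt3bCI/CI embryos. Dnmt3b+/+ embryo 2 was the lowest of all 9, so that the Dnmt3b+/+ range covered that of the label Dnmt3b-/-. The log2 fold change of the embryos labelled Dnmt3b-/- was -0.43 (standard error 0.38, limma adjusted p = 0.443) against Dnmt3b+/+ and -0.92 (standard error 0.38, adjusted p = 0.104) against Dnmt3bCI/CI. Without Dnmt3b+/+ embryo 2, the first was -0.89 (adjusted p = 0.0490) and the second kept its size at an adjusted p of 0.0202, both below 2-fold. Without Dnmt3bCI/CI embryo 2 as well, they were -0.89 (adjusted p = 0.0674) and -0.82 (adjusted p = 0.0682). Other single embryos moved the first the opposite way, to -0.13 (adjusted p = 0.823) without Dnmt3b+/+ embryo 1, -0.20 (adjusted p = 0.775) without embryo 3 of the label and -0.26 (adjusted p = 0.708) without Dnmt3b+/+ embryo 3. Tcf21, a factor of the same mesenchyme and of epicardium that is also among the mesothelium markers, was also low in Dnmt3b+/+ embryo 2 and in embryo 3 labelled Dnmt3b-/-, at 0.504 and 0.431 FPKM against 1.47 to 3.67 FPKM in the others. Not all of the other mesothelium markers followed, since Tbx18 was at its highest in embryo 3 labelled Dnmt3b-/-, at 4.01 FPKM. Of the 5 mesothelium markers 0 passed the thresholds in any comparison, beside 0.129% to 5.42% of all genes. Their summed level was 6.47 to 10.4 FPKM in Dnmt3b+/+, 7.07 to 9.94 FPKM in the label Dnmt3b-/- and 7.46 to 13.7 FPKM in Dnmt3bCI/CI. It was 6.47 FPKM in Dnmt3b+/+ embryo 2 and 8.10 FPKM in embryo 3 labelled Dnmt3b-/-. The part of mesothelium in the Wt1 level was not tested.

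Gdnf, the ligand that draws out the ureteric bud, had 0.811, 0.286 and 0.632 FPKM in Dnmt3b+/+ embryos, 0.343, 0.516 and 0.295 FPKM under the label Dnmt3b-/- and 0.521, 0.645 and 0.682 FPKM in Dnmt3bCI/CI embryos. The lowest and the highest of all 9 were both Dnmt3b+/+ embryos. The log2 fold change of the embryos labelled Dnmt3b-/- was -0.42 (standard error 0.31, limma adjusted p = 0.344) against Dnmt3b+/+ and -0.58 (standard error 0.31, adjusted p = 0.186) against Dnmt3bCI/CI. Without Dnmt3b+/+ embryo 2 the first was -0.78 (adjusted p = 0.0450). Without Dnmt3bCI/CI embryo 2 as well, they were -0.78 (adjusted p = 0.0709) and -0.55 (adjusted p = 0.135). The first was -0.16 (adjusted p = 0.733) without Dnmt3b+/+ embryo 1. Gdnf rested on 42 to 127 reads per library. Wt1 and Gdnf were related over the 9 embryos, with Pearson's r = 0.83 (exact permutation p = 0.00814, 0.0342 adjusted over the 36 pairs of the 9 genes) and Spearman's rho = 0.83 (exact permutation p = 0.00827, adjusted 0.0425). Without the 2 embryos farthest from the median of Wt1, r was 0.54, so the relation rests in part on these embryos. Within genotypes r was 0.77.

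Six2, the gene of the nephron progenitors, had 34.6, 20.6 and 28.6 FPKM in Dnmt3b+/+, 26.3, 31.0 and 31.4 FPKM under the label Dnmt3b-/- and 26.0, 19.1 and 32.2 FPKM in Dnmt3bCI/CI. The genotypes overlapped, and the lowest embryos were Dnmt3b+/+ embryo 2 and Dnmt3bCI/CI embryo 2. The log2 fold change of the embryos labelled Dnmt3b-/- against Dnmt3b+/+ was 0.11, with a 95% interval from -0.40 to 0.61, which leaves out a 2-fold change in either direction, and -0.094 without Dnmt3b+/+ embryo 2 and Dnmt3bCI/CI embryo 2. In Dnmt3bCI/CI it was -0.12 (-0.62 to 0.39). Emx2, the homeobox gene of the urogenital epithelium and the forebrain, had 6.16, 4.93 and 5.94 FPKM in Dnmt3b+/+, 4.48, 3.99 and 5.33 FPKM under the label Dnmt3b-/- and 4.32, 2.78 and 5.48 FPKM in Dnmt3bCI/CI. The lowest value of Emx2 was that of Dnmt3bCI/CI embryo 2, the library in which Emx1, the forebrain relative of Emx2, was at 0.0212 FPKM. The log2 fold changes against Dnmt3b+/+ were -0.30 (-0.81 to 0.21) in the label Dnmt3b-/- and -0.47 (-0.98 to 0.03) in Dnmt3bCI/CI. The second was -0.21 without Dnmt3bCI/CI embryo 2 and -0.69 without Dnmt3bCI/CI embryo 3. The part of the forebrain in the Emx2 level was not tested.

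The embryos that held the extremes were few. Embryo 3 labelled Dnmt3b-/- was the lowest of 9 for 4 genes, Pax2, Pax8, Osr1 and Lhx1. Dnmt3b+/+ embryo 2 was the lowest for 3, Wt1, Gdnf and Eya1, and the highest for Lhx1. Dnmt3bCI/CI embryo 2 was the highest for 4, Wt1, Pax2, Pax8 and Osr1, and the lowest for Six2 and Emx2. Dnmt3b+/+ embryo 1 was the highest for 3, Six2, Gdnf and Emx2. All other extremes fell to embryo 2 labelled Dnmt3b-/-, the highest for Eya1.

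**Figure D4:**
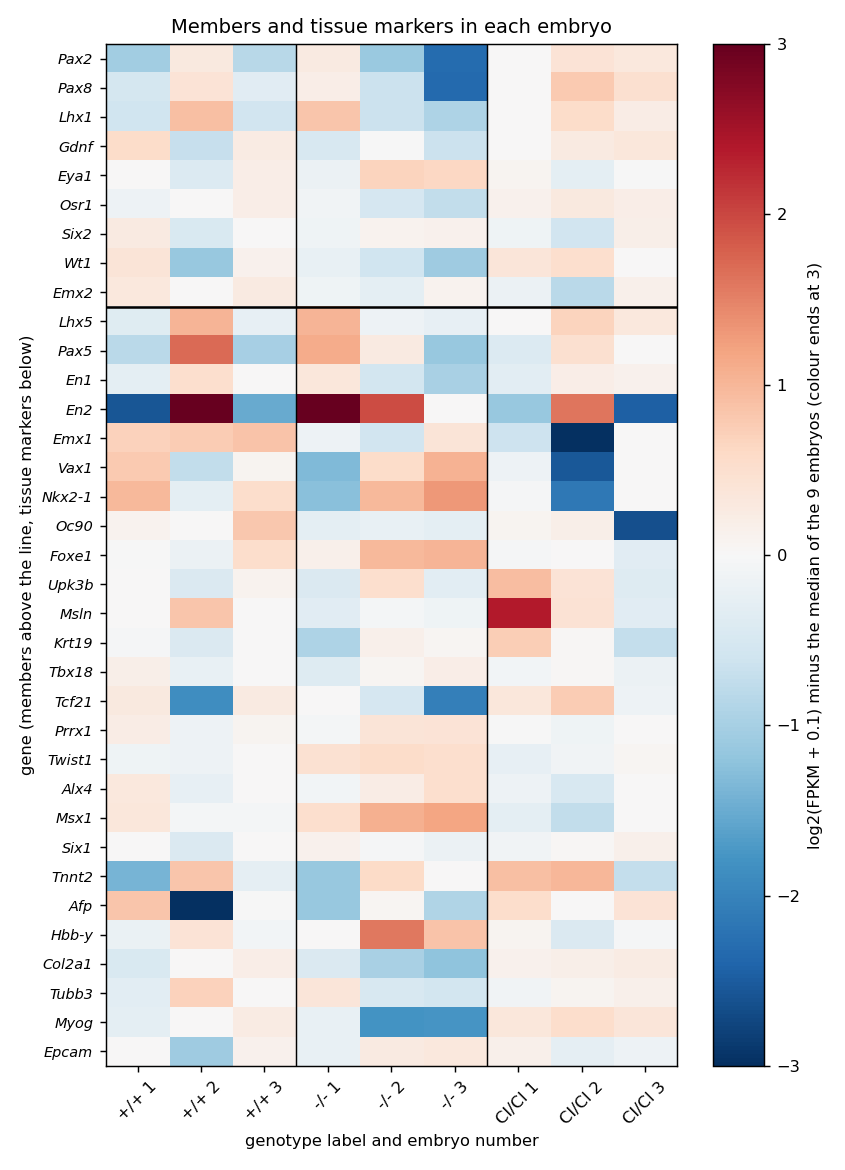
Level of the 9 genes (above the line) and of tissue markers (below) in each embryo, as log2(FPKM + 0.1) minus the median of the 9 embryos, red higher and blue lower, with the colour ending at 3. En2 and Lhx5 are high in Dnmt3b+/+ embryo 2 and embryo 1 labelled Dnmt3b-/-, like Lhx1, and Afp in the first and Emx1 in Dnmt3bCI/CI embryo 2 reach the low end.

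For each gene, the gene outside the 9 with the most similar pattern was found among 12789 genes with a mean of at least 1 FPKM, by Pearson's r over the 9 embryos, as a description. For Pax2 it was Hoxb5, for Pax8 Hoxd3, both Hox genes of the neck and trunk, and for Lhx1 Nt5c2. Their r is not printed, since it rests on the same 2 groups of embryos. Hoxb5 had 3.10, 9.15 and 3.75 FPKM in Dnmt3b+/+, 9.23, 2.19 and 0.540 FPKM under the label Dnmt3b-/- and 7.67, 10.3 and 10.5 FPKM in Dnmt3bCI/CI, the split seen for Pax2. For Osr1 it was Wnt11 (r = 0.99), itself on the list of GDNF-RET signalling below. For Six2 it was Far2 (r = 0.98), for Gdnf Adcy7 (r = 0.98), for Eya1 Kars (r = 0.99), for Wt1 Tmem164 (r = 0.96) and for Emx2 Foxl2os (r = 0.96).

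Of 42 other genes of the kidney and the urogenital ridge, in 4 lists, all were tested, and 3 passed the thresholds in at least 1 comparison. In the embryos labelled Dnmt3b-/- against Dnmt3b+/+, 1 was higher and 0 lower, beside 4.45% of all genes in either direction. Against Dnmt3bCI/CI 2 were higher and 1 lower, beside 5.42%, and between Dnmt3bCI/CI and Dnmt3b+/+ 0 passed, beside 0.129%. Without the fold change threshold, 5 were higher and 5 lower against Dnmt3b+/+, and 6 higher and 6 lower against Dnmt3bCI/CI, beside 25.8% and 27.9% of all genes. These shares were near those of all genes. The median log2 fold change of the 42 was -0.15, 0.10 and -0.09 in the label Dnmt3b-/- against Dnmt3b+/+, in Dnmt3bCI/CI against Dnmt3b+/+ and in the label against Dnmt3bCI/CI, beside -0.07, 0.02 and -0.08 over all genes. The count against Dnmt3b+/+ was 8 without embryo 1 labelled Dnmt3b-/-, 4 without Dnmt3b+/+ embryo 1, 3 without Dnmt3b+/+ embryo 3 and 2 without Dnmt3b+/+ embryo 2 or Dnmt3bCI/CI embryo 2. Against Dnmt3bCI/CI it was 7 without embryo 1 labelled Dnmt3b-/- and 1 without embryo 3.

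In the list of 7 genes of nephric duct and ureteric bud epithelium, Wnt9b, the signal from the duct that starts nephron formation in the mesenchyme, rose. It had 0.679, 0.551 and 0.581 FPKM in Dnmt3b+/+ embryos, 1.44, 1.19 and 1.44 FPKM under the label Dnmt3b-/- and 0.547, 0.409 and 0.697 FPKM in Dnmt3bCI/CI embryos. The embryos labelled Dnmt3b-/- were above all others, with a log2 fold change of 1.05 (standard error 0.17, limma adjusted p = 0.00466) against Dnmt3b+/+ and 1.18 (standard error 0.17, adjusted p = 0.00250) against Dnmt3bCI/CI. Wnt9b was singled out by the study on these embryos, so this is no independent evidence. Without Dnmt3b+/+ embryo 2 its log2 fold change against Dnmt3b+/+ was 0.99, just under 2-fold, at an adjusted p of 0.0160. At a pseudocount of 1 FPKM the values were 0.55 and 0.61, so that both calls were lost on fold change. Wnt7b was at 0.44 and 0.77 (adjusted p = 0.0203 and 0.00224) and Npnt, an integrin ligand of the bud that acts on the mesenchyme, at -0.59 and -0.52 (adjusted p = 0.00159 and 0.00224), against Dnmt3b+/+ and Dnmt3bCI/CI, all below 2-fold. Cdh16 was at -0.28 and -0.98 (adjusted p = 0.388 and 0.0136) on 2 to 31 reads per library. Without Dnmt3b+/+ embryo 2 and Dnmt3bCI/CI embryo 2 the first was -0.50 (adjusted p = 0.131). It was -0.14 without embryo 3 of the label (adjusted p = 0.74) and -0.14 without Dnmt3b+/+ embryo 3 (adjusted p = 0.71). Without embryo 3 of the label the second was -0.84 (adjusted p = 0.0513). The second passed the thresholds without embryo 1 (-1.09) or 2 (-1.01) of the label or Dnmt3bCI/CI embryo 1 (-1.06).

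Among the 10 genes of GDNF-RET signalling, Wnt11, a target of Ret at the tips of the ureteric bud, was lower in the embryos labelled Dnmt3b-/-. It had 3.78, 4.01 and 4.50 FPKM in Dnmt3b+/+ embryos, 3.65, 2.08 and 1.57 FPKM under the label Dnmt3b-/- and 4.63, 5.34 and 4.81 FPKM in Dnmt3bCI/CI embryos. Against Dnmt3bCI/CI it fell with a log2 fold change of -1.07 (standard error 0.25, limma adjusted p = 0.0152), and against Dnmt3b+/+ it was at -0.81 (standard error 0.25, adjusted p = 0.0442), below 2-fold. The call against Dnmt3bCI/CI was lost without embryo 2 (-1.003, adjusted p = 0.0547) or embryo 3 (-0.81, adjusted p = 0.0380) of the label, without Dnmt3bCI/CI embryo 2 (-1.01, adjusted p = 0.0523), without both Dnmt3b+/+ embryo 2 and Dnmt3bCI/CI embryo 2 (-1.01, adjusted p = 0.0620), with quantile normalization (-0.93) and at a pseudocount of 1 FPKM (-0.83). Without these 2 embryos the adjusted p against Dnmt3b+/+ was 0.122. Gfra1, the co-receptor for Gdnf, was at -0.81 and -0.98 (adjusted p = 0.0326 and 0.0147) against Dnmt3b+/+ and Dnmt3bCI/CI. Etv4, a transcription factor that acts downstream of Ret, was at 0.95 and 0.80 (adjusted p = 0.00164 and 0.00265), and Robo2, the Slit receptor that confines Gdnf to its site of action, at -0.72 and -0.68 (adjusted p = 0.00337 and 0.00367). None of Gfra1, Etv4 and Robo2 reached 2-fold with all embryos. The adjusted p of Gfra1 against Dnmt3b+/+ passed 0.05 when any embryo other than Dnmt3b+/+ embryo 1 or embryo 1 of the label was left out, with 0.0507 to 0.111. Without embryo 1 of the label, Gfra1 was at -1.11 (adjusted p = 0.000446) and Etv4 at 1.07 (adjusted p = 0.000366) against Dnmt3b+/+, both past the thresholds, which Etv4 also passed without Dnmt3b+/+ embryo 3 (1.04, adjusted p = 0.00493). Against Dnmt3bCI/CI, Gfra1 passed them without embryo 1 of the label (-1.29, adjusted p = 0.000221) or Dnmt3bCI/CI embryo 3 (-1.01, adjusted p = 0.043). Its adjusted p there rose above 0.05 without embryo 2 (0.0554) or 3 (0.05015) of the label. The same held without both Dnmt3b+/+ embryo 2 and Dnmt3bCI/CI embryo 2 (0.0528). Ret itself had 1.43, 1.47 and 1.39 FPKM in Dnmt3b+/+, 2.27, 1.23 and 0.584 FPKM in the label Dnmt3b-/- and 1.83, 1.95 and 1.95 FPKM in Dnmt3bCI/CI, and was named after its values were seen. Wnt11 and Etv4 are also active in limb buds and other tissues, and the part of the kidney in their levels was not tested.

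Of the 16 genes of metanephric mesenchyme and nephron progenitors, 0 passed the thresholds in any comparison, beside 0.129% to 5.42% of all genes. Osr2, a relative of Osr1 that is also made in limb and palate and was named here after its values were seen, came closest. It had 5.29 to 6.95 FPKM in Dnmt3b+/+ embryos, 2.82 to 3.01 FPKM in those labelled Dnmt3b-/- and 4.81 to 7.11 FPKM in Dnmt3bCI/CI embryos. All embryos of the label lay below all others, at a log2 fold change of -0.98 (limma adjusted p = 0.00317) against Dnmt3b+/+ and -0.95 (adjusted p = 0.00314) against Dnmt3bCI/CI, just under 2-fold with all embryos. The lowest Dnmt3b+/+ value, 5.29 FPKM, was that of embryo 2, so that the first fall is larger without it. The largest estimates were those of Hoxc11, Tcf21 and Hoxa11, none with an adjusted p under 0.05. Hoxc11, a posterior Hox gene, had 0.898, 0.00894 and 0.315 FPKM in Dnmt3b+/+, 1.58, 2.73 and 0.635 FPKM in the label Dnmt3b-/- and 0.364, 1.66 and 1.74 FPKM in Dnmt3bCI/CI. The value in Dnmt3b+/+ embryo 2 stands for 0 reads, which allows up to 0.0298 FPKM. Against Dnmt3b+/+ its log2 fold change came to 2.09 (standard error 0.87, limma adjusted p = 0.109), and that of Hoxa11 was 1.11 (standard error 0.37, adjusted p = 0.0554). Hoxc11 was at 1.24 (adjusted p = 0.308) without Dnmt3b+/+ embryo 2 and Dnmt3bCI/CI embryo 2. Without Dnmt3b+/+ embryo 1, Hoxc11 was at 2.83 (adjusted p = 0.0464) and Hoxa11 at 1.44 (adjusted p = 0.0233), both past the thresholds, which Hoxa11 also passed without embryo 1 of the label (1.26, adjusted p = 0.0452) or Dnmt3bCI/CI embryo 2 (1.11, adjusted p = 0.0495). Tcf21 was at -0.42 and -1.16 (adjusted p = 0.682 and 0.225) against Dnmt3b+/+ and Dnmt3bCI/CI. The first was -1.13 (adjusted p = 0.208) without Dnmt3b+/+ embryo 2 and Dnmt3bCI/CI embryo 2, and 0.19 (adjusted p = 0.862) without embryo 3 of the label. Without embryo 3 of the label the second was -0.56 (adjusted p = 0.579). The medians of the 16 genes were 0.07, 0.17 and -0.03 in the 3 comparisons, in the order used for the 42 genes.

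Of the 9 genes of the urogenital ridge and early gonad, Lhx9, a LIM homeobox gene needed for the gonad and also made in brain and limb, passed in 1 comparison. It had 1.75, 3.07 and 1.68 FPKM in Dnmt3b+/+ embryos, 1.63, 2.02 and 1.99 FPKM under the label Dnmt3b-/- and 0.802, 0.981 and 0.882 FPKM in Dnmt3bCI/CI embryos. The embryos labelled Dnmt3b-/- were above all Dnmt3bCI/CI embryos, with a log2 fold change of 1.00 (standard error 0.21, limma adjusted p = 0.0107), and lay close to Dnmt3b+/+ at -0.15 (95% interval -0.63 to 0.34), or 0.12 without Dnmt3b+/+ embryo 2 and Dnmt3bCI/CI embryo 2. The Dnmt3bCI/CI embryos were below all Dnmt3b+/+ embryos at -1.15 (adjusted p = 0.223). The call fell below 2-fold without embryo 2 (0.95) or 3 (0.96) labelled Dnmt3b-/- and without Dnmt3bCI/CI embryo 1 (0.94) or 3 (0.9992), and at a pseudocount of 1 FPKM (0.61). Lhx2 was at -1.52 in Dnmt3bCI/CI against Dnmt3b+/+ (adjusted p = 0.616), with 2.81 FPKM in Dnmt3bCI/CI embryo 2, and at -1.01 without that embryo. In the label Dnmt3b-/- against Dnmt3bCI/CI, Lhx2 was at 1.20 (adjusted p = 0.0515), and at 0.69 (adjusted p = 0.0685) without Dnmt3bCI/CI embryo 2. It passed the thresholds there without embryo 1 of the label (1.33, adjusted p = 0.0490) or Dnmt3bCI/CI embryo 3 (1.60, adjusted p = 0.0223). Nr5a1, the steroidogenic factor of the early gonad, had 0.349, 0.0331 and 0.355 FPKM in Dnmt3b+/+, 0.0769, 0.0832 and 0.0698 FPKM in the label Dnmt3b-/- and 0.226, 0.191 and 0.221 FPKM in Dnmt3bCI/CI. All embryos labelled Dnmt3b-/- lay below the Dnmt3bCI/CI embryos at -0.82 (adjusted p = 0.169), on 12 to 15 reads per library against 35 to 43. Against Dnmt3b+/+, where embryo 2 was the lowest of all 9, Nr5a1 was at -0.77 (adjusted p = 0.203). That value was -1.36 (adjusted p = 0.00452) without Dnmt3b+/+ embryo 2 and Dnmt3bCI/CI embryo 2, past both thresholds, and without Dnmt3b+/+ embryo 1 or 3 it was -0.48 or -0.47. Amhr2 was at -0.48 and -0.70 (adjusted p = 0.378 and 0.194) against Dnmt3b+/+ and Dnmt3bCI/CI, and the first was -0.88 (adjusted p = 0.0849) without Dnmt3b+/+ embryo 2 and Dnmt3bCI/CI embryo 2 and -0.18 (adjusted p = 0.764) without Dnmt3b+/+ embryo 1.

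**Figure D5:**
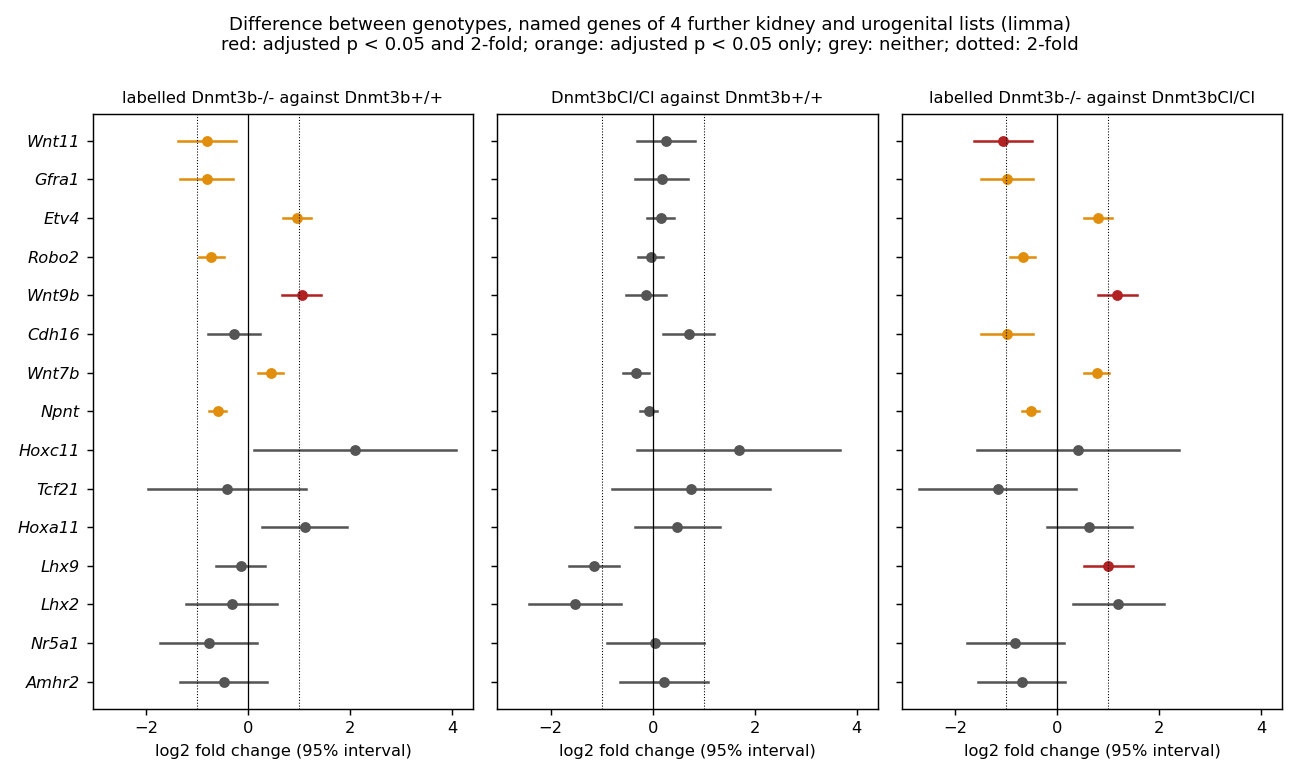
Log2 fold change (horizontal axis, limma) with its 95% interval for the 15 named genes of the 4 lists in the 3 comparisons, with dotted lines at a 2-fold change. Wnt9b passes both thresholds against Dnmt3b+/+ and Dnmt3bCI/CI, Wnt11 and Lhx9 pass them only in the comparison with Dnmt3bCI/CI, and no gene passes in Dnmt3bCI/CI against Dnmt3b+/+.

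Among the 5 mesenchyme markers and the 7 whole embryo markers, the call rule was passed by Msx1, Col2a1 and Myog. Over all genes, 0.129% to 5.42% passed it, depending on the comparison. Summed over the 5 mesenchyme markers, levels were 87.9 to 100 FPKM in Dnmt3b+/+, 128 to 147 FPKM under the label Dnmt3b-/- and 84.6 to 102 FPKM in Dnmt3bCI/CI, without overlap between the label and the others, and Msx1, a gene of limb and head mesenchyme, rose against Dnmt3bCI/CI with a log2 fold change of 1.26 (limma adjusted p = 0.00560). Six2, Osr1 and Eya1 are also made in such mesenchyme. Their log2 fold changes against Dnmt3b+/+ were 0.11, -0.48 and 0.44. Myog, a gene of skeletal muscle, was lower at -1.25 against Dnmt3b+/+ (adjusted p = 0.0405) and -1.68 against Dnmt3bCI/CI (adjusted p = 0.0128). It had 16.4, 20.2 and 24.0 FPKM in Dnmt3b+/+ and 17.2, 5.76 and 5.87 FPKM under the label Dnmt3b-/-. Embryo 1 of the label thus lay within the Dnmt3b+/+ range. Col2a1, a cartilage collagen, was lower at -1.05 against Dnmt3bCI/CI (adjusted p = 0.00878). The part of these tissues in the levels of the 9 genes was not tested.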

How the data were processed

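RNA-seq was done on 1 library from each of 9 whole E11.5 embryos, 3 per genotype, with genotypes taken from the sample labels. Total RNA was sequenced by the authors in paired-end mode. They aligned trimmed reads to mm10 with STAR, dropped alignments of low mapping quality, quantified genes in SeqMonk and deposited FPKM values for 34245 genes on the linear scale. The strand setting and annotation release are not given in the sources used here. 1 row without a gene name was left out. The file holds no zeros, since a gene without reads carries a value worth 0.9 reads. Values behaved as whole numbers of reads (within 0.01) times a constant per gene and library, so reads were worked back for 34238 genes, and the implied lengths matched GENCODE M21 for 91.6%. Bisulfite data were not analysed here, and single values of 2 marker genes are not reported here.

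A gene had to reach 0.1 FPKM in 3 or more of the 9 embryos, which 19397 did. Their log2(FPKM + 0.1) was tested by limma 3.58.1 (R 4.3.3), all 9 embryos in 1 model with a variance trend, and Benjamini-Hochberg adjustment over all of them. Fold changes on this scale understate the change of low genes. A gene counted as changed where its adjusted p was under 0.05 and its fold change 2 or more. With 3 embryos against 3, an exact two-sided permutation test of a single gene cannot give a p below 0.1. The test was checked on simulated data. The 9 genes, the 4 lists of kidney genes and the 4 marker lists were chosen with earlier results of these data known. Named from the lists are genes that passed in any comparison and up to 3 others per list with the largest change, and any other gene is marked as chosen after its values were seen, apart from the markers. The labels call the embryos independent without naming litters, and p-values measure only the spread between these embryos. Alternatives were other pseudocounts, filters, scalings and models, each embryo left out, and limma-voom on the recovered reads. Software was scipy 1.17.1, pandas 2.3.3 and numpy 2.4.6 under python 3.11.15, with matplotlib 3.10.9 for figures.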

Additional observations from a re-analysis of the deposited data

How the results depend on the processing

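Over the 21 alternatives, 0 of the 9 genes passed the thresholds in the embryos labelled Dnmt3b-/- against Dnmt3b+/+ or in Dnmt3bCI/CI against Dnmt3b+/+. Against Dnmt3bCI/CI the count was 1 (Osr1) with no fold change minimum, and 0 to 2 when single embryos were left out. Of 564 recomputed log2 fold changes of the 9 genes, 543 kept their direction and their side of the thresholds, 3 came to pass them and 18 changed sign, in 8 of the 27 comparisons.

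Leaving out single embryos changed the sign of these log2 fold changes, given with their lowest and highest values. For the label Dnmt3b-/- against Dnmt3b+/+, Pax2 ran from -1.18 to 0.11, Six2 from -0.094 to 0.28, Lhx1 from -0.70 to 0.33 (with 0.037 and 0.18 also above 0) and Lhx9 from -0.29 to 0.12. For Dnmt3bCI/CI against Dnmt3b+/+, Six2 ran from -0.32 to 0.083 (0.053 also above 0), Gdnf from -0.20 to 0.42, Eya1 from -0.17 to 0.12 (0.026 and 0.10 also above 0) and Wnt9b from -0.29 to 0.033. For the label Dnmt3b-/- against Dnmt3bCI/CI, Emx2 ran from -0.0899 to 0.39. In the comparison of Dnmt3bCI/CI with Dnmt3b+/+, Wt1 ran from 0.030 to 0.78. Without both Dnmt3b+/+ replicate 2 and Dnmt3bCI/CI replicate 2, chosen after seeing the data, Wt1 was at -0.072 and Gdnf at -0.23 in Dnmt3bCI/CI, Six2 at -0.094, Lhx1 at 0.33 and Lhx9 at 0.12 in the label Dnmt3b-/- (all against Dnmt3b+/+), and Emx2 at -0.0899 against Dnmt3bCI/CI. With limma-voom, also chosen after seeing the data, Eya1 was at 0.0072 in Dnmt3bCI/CI. Quantile normalization put Lhx9 at 0.0078 against Dnmt3b+/+ and moved the median of all genes against Dnmt3bCI/CI from -0.08 to 0.03. The cause of these changes was not tested.

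Of the 42 list genes, 1 passed in the label Dnmt3b-/- against Dnmt3b+/+. The count was 2 with a pseudocount of 0.01 FPKM, quantile normalization, limma-voom or without both replicates 2, 0 with a pseudocount of 1 FPKM, 10 with no fold change minimum and 1 to 8 with an embryo left out. Against Dnmt3bCI/CI, 3 passed, with 5 at a pseudocount of 0.01 FPKM, 1 at 1 FPKM, 12 with no fold change minimum, 6 with limma-voom and 1 to 7 with an embryo left out. Over all genes, the number lower against Dnmt3b+/+ (655) was 133 at a pseudocount of 1 FPKM, 1028 at 0.01 FPKM, 388 with a filter of 1 FPKM, 1035 with limma-voom, and 1174 and 427 without embryo 1 and 3 of the label.

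With the replicate number as a block, the members that passed stayed at 0 in all 3 comparisons, Osr1 against Dnmt3bCI/CI had an adjusted p of 0.0464, and 199 genes were higher and 539 lower in the label Dnmt3b-/- against Dnmt3b+/+. The numbers name embryos and do not pair them. Deviations of same-numbered embryos had a mean correlation of -0.0881 in 9 pairs, against 0.0485 in 18 other pairs, and 1 of 9 embryos correlated best with one of its own number. Gdnf could not be fitted with a filter of 1 FPKM. Reads limit the low genes most, at 17 for Pax8 in embryo 3 labelled Dnmt3b-/-.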
